A study of Mus musculus with 6 samples.

Results

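The genes of glycolysis and of the response to low oxygen were followed in fibroblasts grown from the heart and from the tail of adult mice. The set holds 37 genes, chosen by name and found on the arrays through RefSeq accessions, of 20567 features tested. It spans 4 glucose and lactate transporters, 17 enzymes of glycolysis, 4 enzymes that switch the flux of sugar, 4 genes of the oxygen-sensing machinery and 8 further genes known to be induced in hypoxia. RNA came from heart fibroblasts (3 cultures) and skinned tail fibroblasts (3 cultures) of male C57/Bl6-J mice aged 8 weeks in the sample labels, with 8 to 10 weeks in their protocol. Cells were freed with trypsin or collagenase and grown for 5 days in high-glucose medium with 10% serum, pyruvate and 5% CO2. Each culture pooled 2 animals, and each was read on 1 single-colour array. The labels give no mutation, transgene, drug or change of oxygen, so the comparison is between tissues of origin at 1 culture condition. The sources used here give no oxygen level.

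Glycolysis splits glucose into pyruvate in the cytosol, and fibroblasts in rich medium turn much of that pyruvate into lactate. The hypoxia-inducible factors are pairs of an oxygen-labile alpha subunit, Hif1a or Epas1, and a stable beta subunit. When oxygen is plentiful, prolyl hydroxylases of the Egln family mark the alpha subunits for destruction. When it is scarce, the factors bind the core word ACGTG or GCGTG near genes for sugar uptake, glycolysis and collagen maturation. The arrays measure mRNA, and the alpha subunits are known to be controlled mainly as proteins.

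Levels are log2 processed signal minus the array's 75th percentile, so 0 is the level at the 75th percentile of an array's probes. They are compared between arrays for 1 probe, never between genes. Between 47.3% and 55.2% of spots passed the scanner's well-above-background flag on 5 arrays, against 99.3% on heart 2, whose correlations with the other arrays were 0.742 to 0.764 where all other pairs had 0.958 to 0.989. The array labelled tail 1 correlated at 0.989 with heart 1 and at 0.958 with tail 3. The 3 markers of heart origin summed to 71.5, 0.335 and 65.3 times the 75th percentile on heart 1, 2 and 3, and to 70.2, 0.0476 and 0.0596 on tail 1, 2 and 3. The 3 markers of tail origin summed to 0.102, 26.5 and 0.0825 on heart 1, 2 and 3, and to 0.0762, 115.4 and 126.9 on tail 1, 2 and 3. Both arrays thus ran against their labels at these markers, and heart 2 also stood apart in its scanner values. Whether cultures were exchanged or mislabelled was not tested, so values by label include 2 arrays of doubtful origin. Values are from 4 arrays, heart 1 and 3 against tail 2 and 3 (n = 2 each), unless given as by label, which means all 6 (n = 3 each). Tail 1 was left out because of its expression, so p-values on 4 arrays are too small by an unknown amount. All 7 general fibroblast markers were well above background on all 6 arrays. All 37 genes were too, and none was saturated. On heart 2 that flag says little, since 99.3% of spots had it.

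By label, 0 of the 37 genes passed limma's test at an adjusted p under 0.05, as did 0 of 20197 features (0.0%). At an unadjusted p under 0.05 there was 1 of the 37, Ndrg1, against 2.2% of all features. The groups did not overlap for 2 of the 37, Hif1a and Ndrg1, against 10.4% of all features. On 4 arrays 6 genes passed, 3 higher in heart fibroblasts (Epas1, Egln3, P4ha1) and 3 lower (Ndrg1, P4ha2, Ankrd37), where 14.4% of all features passed, 7.75% higher and 6.63% lower. The share among the 37 genes was thus near that of all features. The groups did not overlap for 24 of the 37, against 62.5% of all features. The median log2 difference was -0.11 for the 37 genes and -0.0676 for all features. After quantile normalization the medians were -0.0294 and -0.0457, so which of the 2 was lower turned with the scaling. By label they were -0.56 and -0.40, and after quantile normalization -0.10 and -0.29. For 9 of the 37 genes the difference by label had the opposite sign to that on 4 arrays. On 4 arrays 23 of the 37 differences lay within 0.5 and 8 were past 1 in size.

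**Figure D1:**
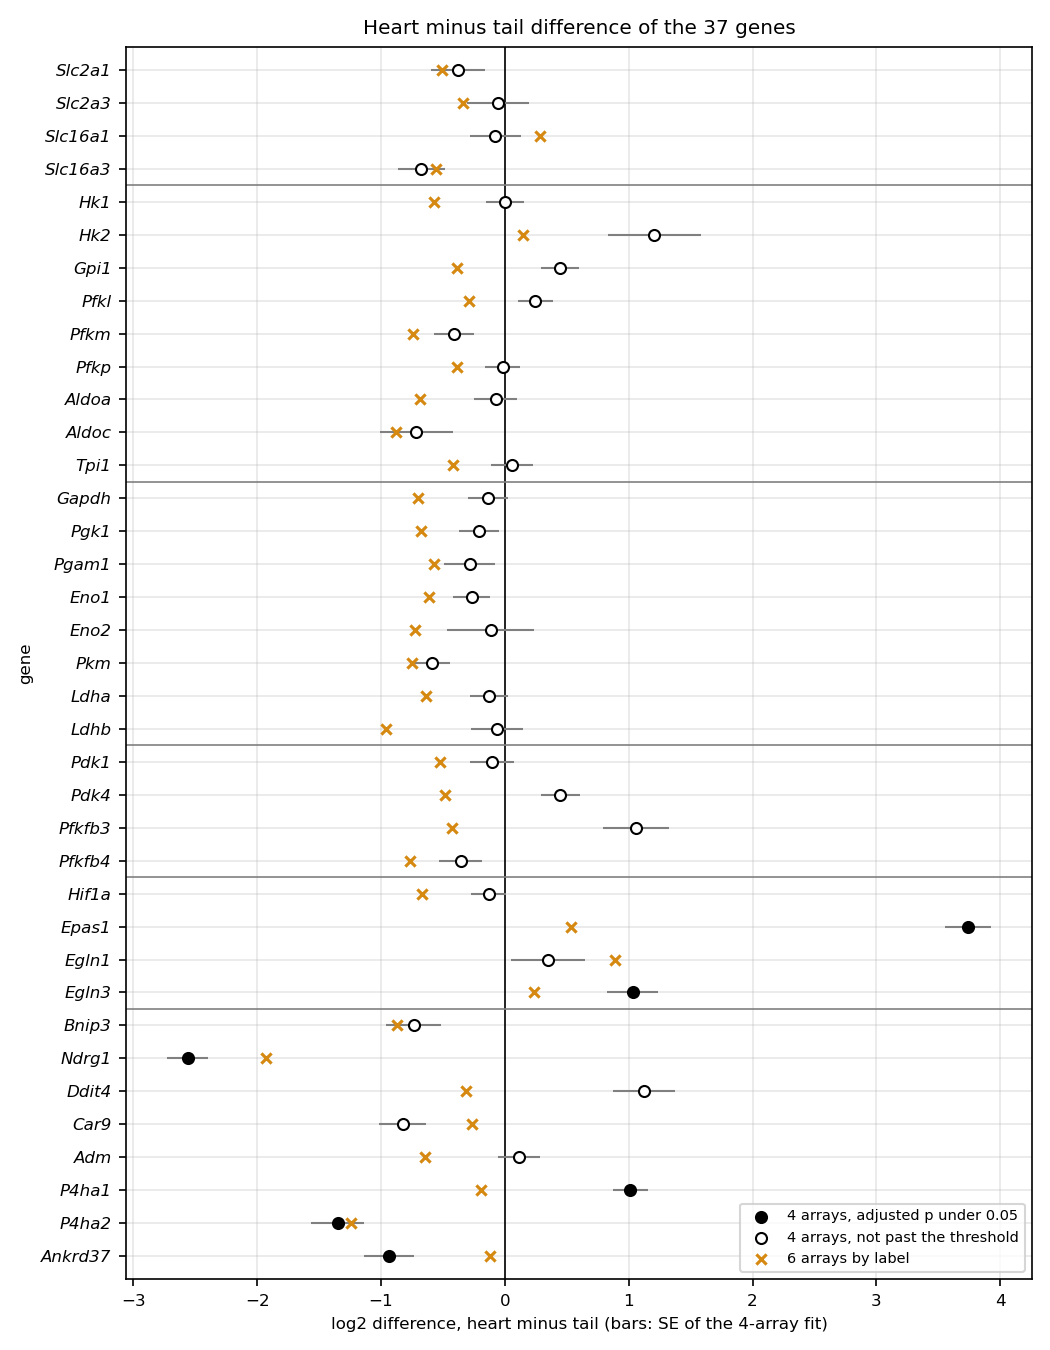
Log2 difference, heart minus tail, of each of the 37 genes, grouped from top to bottom as transporters, upper glycolysis, lower glycolysis, flux switches, oxygen sensing and other hypoxia-induced genes. Circles are the 4-array fit with its SE (filled where the adjusted p was under 0.05), and crosses the 6 arrays by label. Epas1 lies at 3.74 and Ndrg1 at -2.56 on 4 arrays, while most glycolytic genes lie near 0.

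Among the oxygen-sensing genes, Epas1, which encodes the alpha subunit HIF-2 alpha, separated the 4 arrays most. Its level was 6.81, 1.29 and 7.14 on heart 1, 2 and 3, and 7.18, 3.16 and 3.31 on tail 1, 2 and 3. Heart 1 and 3 were high together with tail 1, heart 2 was lowest, and the groups overlapped by label. On 4 arrays Epas1 was 13.4-fold higher in heart fibroblasts (log2 difference 3.74, SE 0.18, limma adjusted p = 0.0013). Within the slide's rows the difference was 3.65 (heart 1 minus tail 2) and 3.83 (heart 3 minus tail 3). By label it was 0.53 with an adjusted p of 0.873. The authors' deposited table lists Epas1 at a log2 fold of 3.94, heart over tail, and holds no other of the 37 genes among its 433 probes. Of the 3 Epas1 probes, all assigned to 1 RefSeq transcript, A_51_P250058 (used above) and A_55_P2053988 differed by 3.74 and 3.79. The probe A_55_P2077448 had 3.41 and 3.83 on heart 1 and 3, where tail 2 and 3 had 3.96 and 3.77, a difference of -0.25. The Epas1 result thus rests on 2 of its 3 probes, and which part of the transcript each reads was not analysed here.

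Hif1a, the widely expressed alpha subunit, was at 2.41, 0.66 and 2.40 on heart 1, 2 and 3, and at 2.41, 2.52 and 2.55 on tail 1, 2 and 3. Every array but heart 2 lay within a narrow range. Each heart value was below each tail value, but heart 1 at 2.411 was only just below tail 1 at 2.414. The 4-array difference was -0.13 (95% interval -0.50 to 0.24, adjusted p = 0.588). A 2-fold change in either direction lay outside that interval. Since tail 1 was left out for its expression, the interval may be too narrow, so such a change is not excluded. By label the difference was -0.67 (SE 0.56, adjusted p = 0.714). Egln3, a prolyl hydroxylase that is itself induced by the factors it restrains, was at -0.46, -2.29 and -0.79 on heart 1, 2 and 3. On tail 1, 2 and 3 it was at -0.93, -1.50 and -1.82. Without heart 2 and tail 1 it was 2.05-fold higher in heart fibroblasts (1.03, SE 0.21, adjusted p = 0.0416), and its second probe differed by 0.95. By label it differed by 0.23 (adjusted p = 0.841). The Egln3 call was lost when any 1 of the 4 arrays was left out (adjusted p 0.0604 to 0.284). Egln1, the main oxygen sensor of the family, differed by 0.35 (adjusted p = 0.493), with heart 1 at -1.32 and heart 3 at -2.11, where tail 2 and 3 had -2.12 and -2.01.

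Some markers of other cell types also differed between heart 1 and 3 and tail 2 and 3. The 7 endothelial markers, of a cell type known for high Epas1, summed to 13.7 and 16.0 times the 75th percentile on heart 1 and 3, where tail 2 and 3 had 11.3 and 9.66. Of those well above background on all 4 arrays, Cdh5 and Icam2 were higher by 2.50 and 3.18 (adjusted p = 0.0134 and 0.0135), and Pecam1 and Egfl7 did not pass. Cldn5, Tie1 and Robo4 were well above background on heart 1 and 3 and not on tail 2 and 3, so the filter fixed their direction. The 6 leukocyte markers summed to 42.9 and 83.8 on heart 1 and 3, where tail 2 and 3 had 37.5 and 23.6. Aif1, Cx3cr1, Cd52 and Ms4a7 were well above background on all 4 arrays and higher by 3.26 to 5.04. Csf1r did not pass, and Ptprc was not well above background on tail 3. Egfl7 and Csf1r, which did not pass, had the brightest probes in their sums on the 4 arrays. The 7 skeletal muscle markers summed to 0.413 and 0.382 on heart 1 and 3, where tail 2 and 3 had 0.856 and 1.97. The 6 cardiomyocyte markers summed to 4.48 and 2.65 on heart 1 and 3, where tail 2 and 3 had 1.59 and 2.46, and Tnnt2 was higher by 4.26 (adjusted p = 0.00916). Myh3, Myog, Actc1 and Mb were well above background on tail 2 and 3 and not on heart 1 or 3, so the filter fixed their direction too. On heart 2 the endothelial, leukocyte, skeletal muscle and cardiomyocyte sums were 5.68, 13.8, 2.84 and 5.14. On tail 1 they were 12.5, 64.4, 0.397 and 5.15. The part of these cells in the differences was not tested, and in bulk RNA fewer cells of a type and less RNA per cell cannot be told apart.

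**Figure D2:**
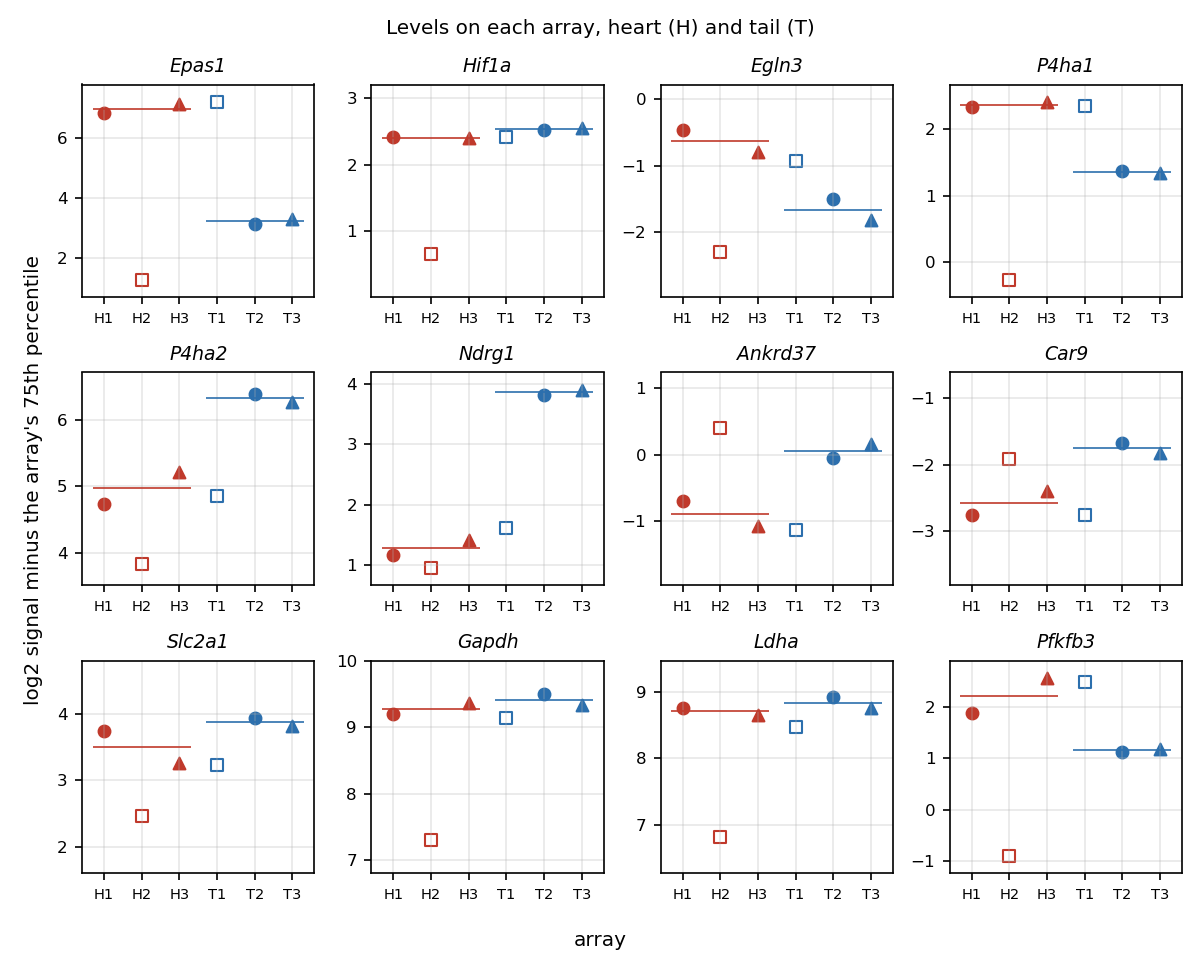
Levels of 12 of the genes on each array (log2 signal minus the array's 75th percentile), heart arrays H1 to H3 in red and tail arrays T1 to T3 in blue. Open squares are heart 2 and tail 1, and lines are the means of the other 2 arrays of a group. Tail 1 lies beside heart 1 and 3 for Epas1, P4ha1, P4ha2 and Ndrg1, and each panel has its own axis.

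The alpha subunits of collagen prolyl 4-hydroxylase, which hydroxylates collagen so that its triple helix is stable, moved in opposite directions on 4 arrays. P4ha1 was at 2.33, -0.26 and 2.41 on heart 1, 2 and 3, and at 2.35, 1.37 and 1.34 on tail 1, 2 and 3. Heart 1 and 3 lay about 1 unit above tail 2 and 3, a 2.02-fold rise in heart fibroblasts (1.01, SE 0.14, adjusted p = 0.0157). Its second probe differed by 1.06. By label P4ha1 differed by -0.19 (adjusted p = 0.899), so heart 2 and tail 1 together turned its sign. P4ha2 was at 4.74, 3.83 and 5.21 on heart 1, 2 and 3, and at 4.86, 6.39 and 6.26 on tail 1, 2 and 3. Heart 1, heart 3 and tail 1 lay together below tail 2 and 3, and heart 2 was lowest. On 4 arrays P4ha2 was 2.55-fold lower in heart fibroblasts (-1.35, SE 0.22, adjusted p = 0.0225), and by label it differed by -1.24 (adjusted p = 0.714). Both calls were lost when tail 2 or tail 3 was left out, with adjusted p up to 0.183 for P4ha1 and 0.138 for P4ha2.

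Ndrg1, a stress-responsive gene induced in hypoxia and in differentiating cells, was at 1.17, 0.96 and 1.42 on heart 1, 2 and 3, and at 1.62, 3.82 and 3.89 on tail 1, 2 and 3. All 3 heart arrays lay below all 3 tail arrays, and tail 1 lay next to the heart arrays. On 4 arrays it was 5.90-fold lower in heart fibroblasts (-2.56, SE 0.16, adjusted p = 0.0021), with -2.65 and -2.47 within the 2 slide rows. By label the difference was -1.93 (unadjusted p = 0.0187, adjusted p = 0.714). Ndrg1 and Epas1 kept their calls when any 1 of the 4 arrays was left out, with adjusted p up to 0.0164 and 0.0135. Ankrd37, an ankyrin-repeat gene known as a target of hypoxia-inducible factors, was at -0.70, 0.40 and -1.08 on heart 1, 2 and 3, and at -1.13, -0.057 and 0.15 on tail 1, 2 and 3. On 4 arrays it was 1.92-fold lower (-0.94, SE 0.20, adjusted p = 0.0489), the nearest of the 6 to the threshold, and by label it differed by -0.12 (adjusted p = 0.919). That call was lost, among other settings, after quantile normalization or median scaling and when heart 3, tail 2 or tail 3 was left out, with adjusted p up to 0.320.

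Of the other hypoxia-induced genes, 4 did not pass. Car9, a cell-surface carbonic anhydrase, was at -2.75, -1.91 and -2.40 on heart 1, 2 and 3, and at -2.76, -1.67 and -1.83 on tail 1, 2 and 3. Heart 1 and 3 lay below tail 2 and 3 by 0.83 on average (difference -0.83, SE 0.19, adjusted p = 0.0601). Ddit4, an inhibitor of growth signalling through mTOR, had a difference of 1.13 (adjusted p = 0.0536), with 5.78 and 6.37 on heart 1 and 3, where tail 2 and 3 had 5.05 and 4.85. By label Ddit4 differed by -0.32 (adjusted p = 0.858) and Car9 by -0.27 (adjusted p = 0.783). Bnip3, a receptor for the removal of mitochondria, had a difference of -0.74 (adjusted p = 0.113), and its 3 probes lay between -0.83 and -0.66. Adm, which encodes a vasodilator peptide, had 6.93 and 6.64 on heart 1 and 3, against 6.67 on both tail 2 and tail 3 (difference 0.11, adjusted p = 0.699). The 8 hypoxia-induced genes together had 1 higher and 3 lower, where 7.75% of all features were higher and 6.63% lower. Their median difference was -0.78, against -0.0676 over all features, and it was -0.59 with normexp and quantile normalization. By label their median was -0.48, against -0.40 over all features, so the gap between the 2 medians was seen mainly on the 4 chosen arrays.

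The promoters of 4 genes that passed on 4 arrays are shown because genes that changed in opposite directions carry the same core words. That of Car9, which did not pass, is shown beside them. Each runs 5′ to 3′ on the gene's strand, from 250 bases before to 50 bases after the start site, as given by RefSeq for GRCm38.p6. Capitals mark ACGTG or GCGTG on either strand, and overlapping matches run together. Epas1, Ndrg1 and Slc2a3 had no promoter among those used here and are named only.
Egln3: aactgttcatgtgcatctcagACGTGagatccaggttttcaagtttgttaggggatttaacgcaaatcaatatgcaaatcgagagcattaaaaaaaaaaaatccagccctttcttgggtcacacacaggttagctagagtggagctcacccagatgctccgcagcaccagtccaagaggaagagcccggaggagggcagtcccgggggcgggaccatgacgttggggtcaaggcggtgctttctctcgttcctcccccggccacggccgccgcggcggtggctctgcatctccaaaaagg
P4ha1: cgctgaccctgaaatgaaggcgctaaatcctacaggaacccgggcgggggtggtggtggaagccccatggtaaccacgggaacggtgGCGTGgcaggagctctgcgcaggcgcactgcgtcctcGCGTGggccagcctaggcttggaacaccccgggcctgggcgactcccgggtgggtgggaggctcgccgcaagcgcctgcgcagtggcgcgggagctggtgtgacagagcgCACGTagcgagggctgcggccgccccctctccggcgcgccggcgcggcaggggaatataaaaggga
P4ha2: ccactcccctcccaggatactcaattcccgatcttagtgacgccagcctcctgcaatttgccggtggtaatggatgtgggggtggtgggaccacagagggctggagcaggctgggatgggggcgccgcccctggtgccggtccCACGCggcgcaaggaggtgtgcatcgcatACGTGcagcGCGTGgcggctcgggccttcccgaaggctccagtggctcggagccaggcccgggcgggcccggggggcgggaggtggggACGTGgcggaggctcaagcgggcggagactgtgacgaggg
Ankrd37: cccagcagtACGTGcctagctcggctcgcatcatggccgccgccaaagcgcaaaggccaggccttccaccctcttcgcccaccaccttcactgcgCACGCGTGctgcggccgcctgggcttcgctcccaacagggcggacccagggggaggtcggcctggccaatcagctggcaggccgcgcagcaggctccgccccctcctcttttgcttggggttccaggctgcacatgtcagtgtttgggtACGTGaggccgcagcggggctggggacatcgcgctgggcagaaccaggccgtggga
Car9: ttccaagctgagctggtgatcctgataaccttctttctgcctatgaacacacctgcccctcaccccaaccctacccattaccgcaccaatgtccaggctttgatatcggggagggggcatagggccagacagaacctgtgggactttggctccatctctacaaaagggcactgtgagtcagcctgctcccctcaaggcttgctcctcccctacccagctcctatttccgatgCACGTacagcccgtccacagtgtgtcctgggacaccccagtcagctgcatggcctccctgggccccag

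The Egln3 window is chr12:54203825-54204124 on the minus strand, with 1 match whose first base lies at -229 from the start site. P4ha1 lies at chr10:59323046-59323345 on the plus strand, with matches at -163, -126 and -16. P4ha2 lies at chr11:54100674-54100973 on the plus strand, with matches at -107, -78, -69 and 11. Ankrd37 lies at chr8:45999801-46000100 on the minus strand, with matches at -241, -155, -152 and -6, of which the middle pair overlap. Car9 lies at chr4:43506776-43507075 on the plus strand, with 1 match at -18. Thus P4ha1, higher in heart fibroblasts, and P4ha2, lower, each held at least 1 of the words. The same was true of 59.3% of the promoters of all tested features. RefSeq gave 47 promoters for 34 of the 37 genes. On both strands, ACGTG was found in 26 of the 47 (55.3%), against 24.4% of the 13836 promoters of tested features and 19.6% of all 32851. GCGTG was found in 28 of the 47 (59.6%), against 47.8% and 32.4%. Some windows of the same gene overlap, so a site can be counted more than once. By gene, 31 of the 34 (91.2%) held either word, against 65.0% of the genes of tested features. The set was chosen by name from glycolysis and hypoxia genes, near which the factors are known to bind, so the excess is no independent result. The 47 windows had 61.8% G and C, against 60.0% and 53.8%. A match is a description of the letters and shows no binding.

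The glucose and lactate transporters all had negative differences on 4 arrays, and none passed, where 14.4% of all features did. Slc2a1, the glucose carrier GLUT1, was at 3.75, 2.47 and 3.26 on heart 1, 2 and 3, and at 3.23, 3.94 and 3.83 on tail 1, 2 and 3. The 4-array difference was -0.38 (95% interval -0.95 to 0.20, adjusted p = 0.321), and by label it was -0.51 (adjusted p = 0.714). Slc2a3, the carrier GLUT3, differed by -0.056 (adjusted p = 0.902). Slc16a3, which exports lactate, differed by -0.67 (adjusted p = 0.0978), with 4.13 and 3.84 on heart 1 and 3, where tail 2 and 3 had 4.80 and 4.52. Slc16a1, the carrier that moves lactate both ways, differed by -0.078 (adjusted p = 0.833).

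In upper glycolysis, from hexokinase to triosephosphate isomerase, 0 of 9 genes passed, where 14.4% of all features did. The median difference was -0.00094. Hk2, the inducible hexokinase, had the largest difference of the 9, 1.21 (95% interval 0.21 to 2.21, adjusted p = 0.121). It was at 2.63 and 1.58 on heart 1 and 3, where tail 2 and 3 had 0.86 and 0.93, and by label the groups overlapped with a difference of 0.14 (adjusted p = 0.926). Heart 1, the highest array for Hk2, was also highest for the 6 proliferation markers, which summed to 172.3 and 67.9 on heart 1 and 3, where tail 2 and 3 had 58.9 and 68.2. Those markers had 0 of 6 calls, and their part in the Hk2 values was not tested. The constitutive hexokinase Hk1 differed by -0.00094 (95% interval -0.41 to 0.41). Gpi1, which isomerizes the first sugar phosphate, differed by 0.44 (adjusted p = 0.152), its 3 probes lay between 0.44 and 0.46, and by label it differed by -0.39 (adjusted p = 0.767). The phosphofructokinase subunits differed by 0.25 for Pfkl, -0.41 for Pfkm and -0.017 for Pfkp, with adjusted p of 0.317, 0.182 and 0.947. The aldolases differed by -0.074 for Aldoa and -0.72 for Aldoc (adjusted p = 0.808 and 0.203), and Tpi1 by 0.057 (adjusted p = 0.850). By scaling, 4 of the 9 differences were positive as reported, 6 after quantile normalization and 7 with normexp.

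In lower glycolysis and lactate formation, 0 of 8 genes passed, where 14.4% of all features did. Gapdh, often used as a control gene, was at 9.20, 7.31 and 9.36 on heart 1, 2 and 3, and at 9.14, 9.50 and 9.33 on tail 1, 2 and 3. Heart 1 and 3 overlapped tail 2 and 3, and the difference was -0.13 (95% interval -0.56 to 0.29, adjusted p = 0.625). Its 7 probes had differences between -0.13 and 0.046. Ldha, the subunit that favours lactate formation, was at 8.76, 6.82 and 8.65 on heart 1, 2 and 3, and at 8.46, 8.92 and 8.75 on tail 1, 2 and 3. Its groups overlapped as well, with a difference of -0.13 (95% interval -0.54 to 0.28, adjusted p = 0.629). Pkm, the last enzyme before pyruvate, had 6.51 and 6.61 on heart 1 and 3, where tail 2 and 3 had 7.18 and 7.12 (difference -0.59, adjusted p = 0.0711). The other 5 (Pgk1, Pgam1, Eno1, Eno2 and Ldhb) had differences between -0.285 and -0.064. All 8 differences were negative with the 75th percentile or the median as scale, and 6 of 8 after quantile normalization.

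The flux switches had 0 of 4 calls, where 14.4% of all features were called. Pfkfb3, which makes the activator of phosphofructokinase, had 1.88 and 2.56 on heart 1 and 3, where tail 2 and 3 had 1.13 and 1.19 (difference 1.06, 95% interval 0.35 to 1.77, adjusted p = 0.0747). By label Pfkfb3 differed by -0.42 (adjusted p = 0.813). Pfkfb4, its relative, differed by -0.36 (adjusted p = 0.259). The kinases that close pyruvate dehydrogenase differed by -0.11 for Pdk1 and 0.45 for Pdk4, with adjusted p of 0.726 and 0.151.

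**Figure D3:**
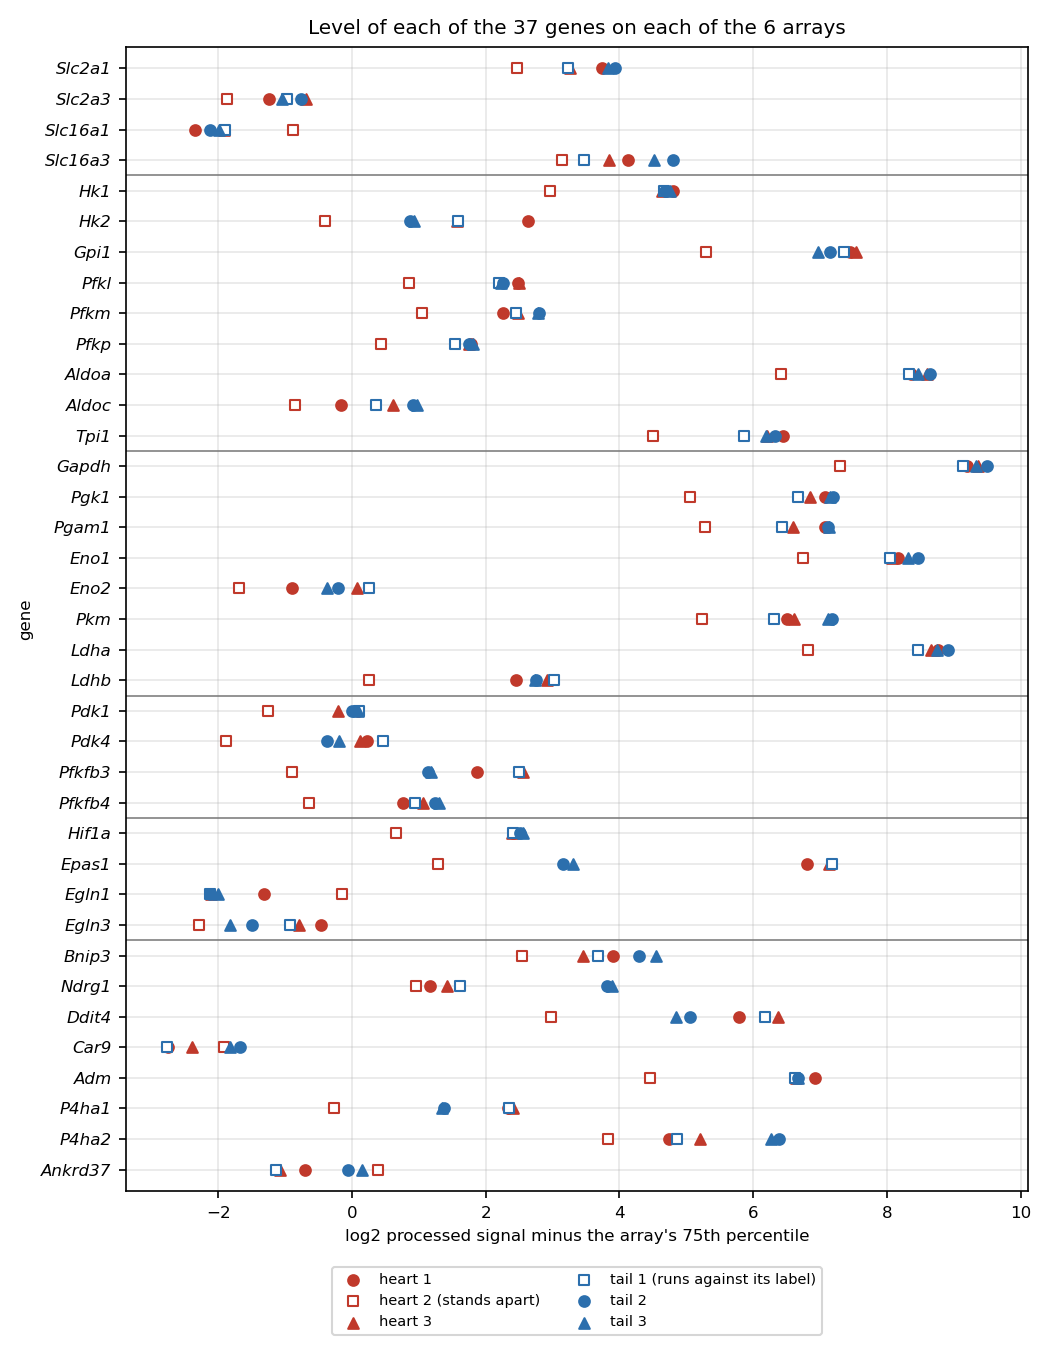
Level of each of the 37 genes on each of the 6 arrays, as log2 processed signal minus the array's 75th percentile, in the same gene groups. Red symbols are heart and blue symbols tail, with open squares for heart 2 and tail 1. The open red squares of heart 2 are the lowest of the 6 values for 33 of the 37 genes, and levels of different genes are not compared.

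The arrays that stood apart did so for most genes of the set. Heart 2 had the lowest of the 6 levels for 33 of the 37 genes. Tail 1 lay nearer to the mean of heart 1 and 3 than to that of tail 2 and 3 for 29 of the 37, among them all 6 that passed on 4 arrays. Among the 83 tested genes of the further lists below, heart 2 was lowest for 58 and tail 1 nearer to heart 1 and 3 for 66. The shares over all features were not computed, so neither count is shown to be a trait of the set. The 75th percentile signal was 2321 on heart 2 and 385 to 613 on the other arrays. Within the slide rows, heart 1 minus tail 2 and heart 3 minus tail 3 had the same sign for 26 of the 37 genes. The 6 genes that passed were among the 26. The row differences were 0.96 and 1.07 for P4ha1, -1.65 and -1.05 for P4ha2, 1.04 and 1.03 for Egln3, and -0.64 and -1.23 for Ankrd37. These are the same 4 arrays as in the test, so a gene that passed could hardly differ in sign between rows. The share of all features with the same sign was not computed either. All 6 calls were lost with heart 2 or tail 1 kept in the fit. Without the filter on dim probes Epas1 and Ndrg1 kept their calls, and P4ha1, P4ha2, Egln3 and Ankrd37 lost them.

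The wider pathway was read from 5 further lists, 96 genes of which 83 were tested. On 4 arrays 11 were higher and 11 lower in heart fibroblasts, where 7.75% of all features were higher and 6.63% lower, and their median difference was -0.044. By label 0 passed. Among 33 tested further hypoxia targets, 8 were higher (Stc1 among them through heart alone, being not well above background on tail 2 and 3) and 4 lower, with a median of 0.027 against -0.0676 over all features. Plod2, a lysyl hydroxylase of collagen, was 7.17-fold higher in heart fibroblasts, with 4.24 and 4.11 on heart 1 and 3, where tail 2 and 3 had 1.34 and 1.32 (2.84, SE 0.15, adjusted p = 0.0014). Lox, which oxidizes collagen lysines so that fibres cross-link, was 4.99-fold lower, with 3.96 and 3.70 on heart 1 and 3, where tail 2 and 3 had 6.11 and 6.19 (-2.32, SE 0.17, adjusted p = 0.0027). By label Plod2 differed by 0.40 (adjusted p = 0.879) and Lox by -1.51 (adjusted p = 0.714). Tmem45a was higher by 2.13 (adjusted p = 0.0024) and Angptl4, an inhibitor of lipoprotein lipase, by 2.01 (adjusted p = 0.0032). The authors' deposited table lists Tmem45a at a log2 fold of 2.32 and 2 Lox probes at -2.15 and -2.17. It lists neither Plod2 nor Angptl4.

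The counts of the other lists stand against the same shares over all features, 7.75% higher and 6.63% lower. Among 16 tested further isoenzymes and sugar-entry genes, 2 were higher and 4 lower. Ldhd, the dehydrogenase of D-lactate, had -4.56 and -4.04 on heart 1 and 3, where tail 2 and 3 had -2.28 and -2.49 (difference -1.92). Of these heart arrays 1 had it well above background, so it was tested through tail alone, and the size of its difference is uncertain. Bpgm, the bisphosphoglycerate mutase of red cells, differed by -1.89 (adjusted p = 0.00984). Hk3, a hexokinase of white blood cells, was higher by 1.71 (adjusted p = 0.00726), and Pgam2, the muscle form of phosphoglycerate mutase, by 1.46 (adjusted p = 0.0223). Hk3 had no value on heart 2. Among 14 genes of pyruvate use, 1 was higher and 2 lower. Pdp1, a phosphatase that opens pyruvate dehydrogenase, had 0.28 and 0.25 on heart 1 and 3, where tail 2 and 3 had 2.46 and 2.48 (difference -2.20, adjusted p = 0.00211). Pck2, which makes phosphoenolpyruvate in mitochondria, differed by -1.36 (adjusted p = 0.00714), and Pcx, pyruvate carboxylase, by 1.27 (adjusted p = 0.0118). All 10 pentose phosphate genes were tested and 0 passed. Of 11 tested regulators of the hypoxia-inducible factors, 0 were higher and 1 was lower, Arnt2, a beta-type partner known from neural tissue. It had -2.38 and -2.90 on heart 1 and 3, where tail 2 and 3 had -0.52 and -0.45 (difference -2.15, adjusted p = 0.00714).

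**Figure D4:**
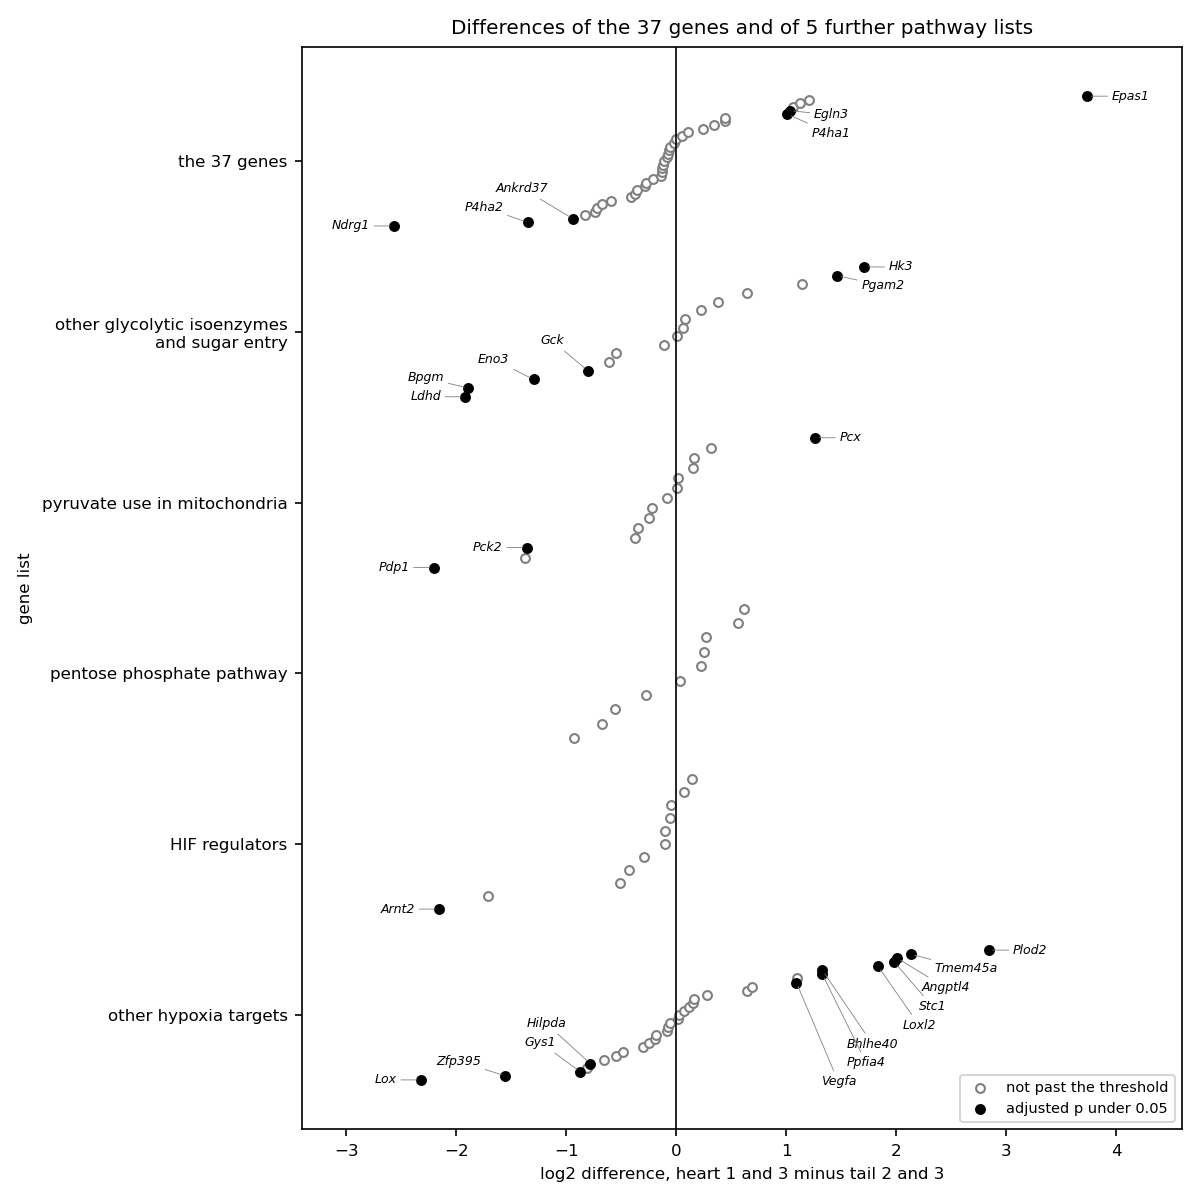
Log2 difference of each tested gene, heart 1 and 3 minus tail 2 and 3, for the 37 genes (top) and 5 further pathway lists, sorted by difference within a list. Filled and named points had an adjusted p under 0.05. Called genes lie on both sides of 0 in the top list (3 higher, 3 lower) and among the other hypoxia targets (8 higher, 4 lower).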

How the data were processed

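RNA of 6 cultures was hybridized to Agilent arrays. Per the file headers and the submitters' processing notes, the deposited spot intensities were read with Agilent Feature Extraction 11.0.1.1, background-subtracted and not scaled between arrays. Deposited flags of other kinds mark outlier, saturated and bright spots. The authors' deposited table gives log2 changes, fold ratios and a signed fold score, heart over tail, for 433 probes. The sources used here do not say how it was made.

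An array's 59305 non-control spots covered 55681 probes. Outlier spots were left out, spots of a probe were averaged as log2, and each array's 75th percentile over probes was subtracted. RefSeq accessions named 27235 probes, 27 more took their symbol from the deposited table, and 28419 stayed unnamed. A probe was kept if 1 group or both had it well above background throughout, and the probe of highest mean stood for a gene. All features were fitted together with limma 3.58.1 (lmFit, eBayes, two-sided) in R 4.3.3, with Benjamini-Hochberg adjusted p under 0.05 as a call, after a check on simulated data. Python 3.11.15, pandas 2.3.3 and matplotlib 3.10.9 were used. The number of arrays limits precision.

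The genes, the lists and the 4-array comparison were chosen with earlier results of these data known. Named were all called genes of the set, Slc2a1, Gapdh, Ldha, Hif1a, Epas1 and Car9 in any case, the others by group, and up to 4 called genes of each further list with the largest differences.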

Additional observations from a re-analysis of the deposited data

How the results depend on the processing

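By label, 0 of the 37 genes and 0 of the further pathway genes passed under each of the 16 alternatives run, the replicate block among them. That block left the median of the 37 genes at -0.56 and called 44 features in all. Same-numbered heart and tail arrays deviated from their group means with correlations of 0.276, 0.319 and -0.396 across 23070 probes, and not every array correlated best with its own number, so the numbers were not taken as pairs. The median by label, -0.56, was -1.49 with median scaling, where that of all features was -1.33.

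On 4 arrays (3 higher, 3 lower), 5 genes were higher with normexp and quantile normalization, with the slide row as a block, and with an intensity trend and robust estimation. Without the filter on dim probes 1 was higher and 1 lower. Leaving out 1 of the 4 arrays gave 1 to 4 higher and 1 to 3 lower, with 1 and 1 without tail 2 or without tail 3. With heart 2 kept, tail 1 kept, or both, 0 were higher and 0 lower. The further pathway genes (11 higher, 11 lower) had 3 higher and 2 lower without the filter, and 0 and 0 with heart 2, tail 1 or both kept. Leaving out 1 array gave 4 to 11 higher and 4 to 14 lower; without tail 2 there were 5 and 4, and without tail 3 there were 4 and 5. The cause was not tested.

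The median on 4 arrays, -0.11, was -0.0294 with quantile normalization, -0.014 with normexp and -0.168 to -0.0473 leaving out 1 array. It was -0.56 on all 6 arrays, -0.0408 leaving out heart 2 alone and -0.60 leaving out tail 1 alone. Reversed on all 6 arrays were P4ha1 (-0.19), Pcx (-0.11), Tmem45a (-0.0568) and Angptl4 (-0.10), none of them called there. Epas1 and Ndrg1 kept their calls under the 9 alternatives of processing on the 4 arrays and the 4 that left out 1 of them. None of these alternatives used the Epas1 probe A_55_P2077448 alone, which differed by -0.25. Of 31 uncalled genes, 8 passed under some alternative (Hk2, Gpi1, Aldoc, Pkm, Pfkfb3, Slc16a3, Ddit4 and Car9) and 18 changed sign under some alternative.

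With 2 arrays per group, and with p-values on 4 arrays too small by an unknown amount, the calls of Ankrd37 and Egln3 lie near the threshold, and genes that did not pass are not shown to be equal. Each gene of the set was well above background on every array, a flag that nearly all spots had on heart 2.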
